A study of Homo sapiens with 12 samples.

Results

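Collagen genes were chosen by name. A gene was taken as a collagen when it was annotated as protein-coding and its symbol read COL, a number, A and a number, as in COL6A3. The count table of the Du145 libraries held 44 such genes among 19933 protein-coding ones, and all 44 had the same identifier in the count table of the C42 libraries, out of 56747 genes present in both tables. The rule used names only and no measured value, but it was set with earlier results of these data known. Their transcripts were counted by RNA sequencing in cultured human prostate cancer cells. The labels name the lines C42, commonly written C4-2, a castration-resistant derivative of LNCaP known to keep intact RB1, and Du145, or DU145, a line from a brain metastasis known to lack functional RB1. In each line, cells were given palbociclib, an inhibitor of the kinases CDK4 and CDK6, or DMSO, its solvent, and all were grown in RPMI-1640 medium with fetal bovine serum. Neither the dose of palbociclib nor how long it was given is stated in the labels used here. Each line is a single established line without an engineered allele named in these labels.

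The labels list 12 libraries, 3 in each of the 4 groups, but the column of C42 DMSO replicate 3 holds only 0 and was not used, so 3 palbociclib libraries stood against 2 DMSO libraries in C42. Levels are given as CPM, the count of a gene relative to the total of its library. Total counts ran from 2608851 to 3489659 per C42 library and from 16108999 to 16674393 per Du145 library, so a count of 0 allowed at most 0.86 to 1.15 CPM in C42 and 0.18 to 0.186 CPM in Du145, a limit of 3 counts that covers counting error only. Nothing in the labels says that libraries of a group were separate cultures. The p-values thus rest on the spread among these libraries alone, and that spread may be technical. Between libraries of a C42 group the chi-square per degree of freedom was 1.14 to 1.18, close to the 1 of counting error alone. The small C42 p-values are to be read with that limit. Both Du145 libraries numbered 3 stood apart from numbers 1 and 2 of their groups, with a chi-square per degree of freedom of 5.41 to 8.34 against 2.36 and 2.37 between numbers 1 and 2. The prostate secretory markers KLK3, KLK2, ACP3 and FOLH1 were at 0 in every C42 library, although 4 of 10 luminal prostate genes reached 1 CPM there. The label C42 therefore goes against those 4 markers, and the name is used here only as the label of these libraries. Of 8 epithelial markers, CDH1, CLDN3 and ESRP1 averaged under 1 CPM in C42, and EPCAM, KRT19, CLDN3 and ESRP1 did in Du145. Whether these values go with either label was not tested. Sums over the epithelial markers were lower with palbociclib, at 471 to 505 CPM against 1193 to 1206 CPM with DMSO in C42 (8 genes, 5 at 1 CPM or more) and 1692 to 1791 against 2322 to 2517 CPM in Du145 (4 at 1 CPM or more), KRT8 making up 73.0% and 73.7% of them. Fibroblast and mesenchymal markers (10 genes) summed to 1304 to 1374 CPM with palbociclib and 1739 to 1822 CPM with DMSO in C42, but VIM alone made up 99.2% of that. Only 3 of the 10 reached 1 CPM there, FAP and TWIST1 were at 0, and without VIM the sums overlapped, at 10.3 to 13.5 and 13.3 to 14.9 CPM. In Du145 the same list (4 at 1 CPM or more, PDGFRA, LUM and POSTN at 0) summed to 518 to 542 and 586 to 603 CPM. Without VIM it summed to 259.7 to 269 and 299 to 306 CPM, most of it S100A4, at a mean of 255 CPM over the Du145 libraries. Smooth muscle markers (5 genes, 4 at 1 CPM or more) summed to 45.9 to 54.4 CPM with palbociclib and 106.9 to 113 CPM with DMSO in C42. That gap lay mostly in ACTA2, at 16.6 to 20.3 and 74.3 to 74.8 CPM, the sums without it being 28.7 to 34.1 and 32.1 to 38.5 CPM, and in Du145 the list summed to 6.67 to 7.91 and 6.08 to 9.15 CPM. Endothelial and leukocyte markers summed to at most 4.01 and 6.63 CPM in any library, the leukocyte list at 1.92 to 2.08 CPM with palbociclib and 5.16 to 6.63 CPM with DMSO in C42. Their part in the collagen results was not tested, and in bulk RNA fewer cells of a type and less RNA per cell cannot be told apart.

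Collagens are the main structural proteins of the extracellular matrix. Their alpha chains carry long Gly-X-Y repeats, and chains of one type wind into a triple helix, as homotrimers or as mixtures of the chains listed under one type number. In the endoplasmic reticulum the chains are hydroxylated on proline and lysine, folded with the help of chaperones and exported. Outside the cell, fibrillar types are trimmed and cross-linked into fibrils, type IV forms the sheet of basement membranes, type VI forms beaded filaments around cells, and type VII forms the fibrils that anchor an epithelium to the stroma. Fibril-associated types (FACITs) decorate fibrils, transmembrane types sit in the cell surface, and multiplexins carry sugar chains in basement membrane zones. In the prostate, stroma makes most fibrillar collagen, while epithelial cells contribute basement membrane chains.

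Of the 44 collagen genes, 21 were expressed in C42 and 19 in Du145, expressed meaning a mean of 1 CPM or more over the libraries of a line. The lines shared 14 expressed genes, namely COL1A1, COL5A1, COL27A1, COL4A1, COL4A2, COL4A4, COL4A5, COL4A6, COL6A1, COL7A1, COL9A2, COL12A1, COL16A1 and COL18A1. A further 7 were expressed in C42 alone by this threshold, COL1A2, COL5A2, COL8A1, COL6A2, COL6A3, COL14A1 and COL13A1. Another 5 were expressed in Du145 alone, COL11A2, COL4A3, COL9A3, COL25A1 and COL15A1. The other 18 averaged under 1 CPM in both lines, among them COL2A1 of cartilage, COL3A1 of stromal fibrils, COL10A1 of growth plates and COL17A1 of hemidesmosomes. Single libraries of some lay above 1 CPM, as COL3A1 did at 1.15 and 1.66 CPM in the C42 DMSO libraries. The expressed COL1A2 and COL4A6 had 0 to 6 and 1 to 7 counts in C42, so members near the threshold are not well separated there. In C42 no unexpressed member had more than 5 counts in a library, and in Du145 none had more than 17. Every library had 0 counts of COL9A1, COL19A1 and COL22A1. A threshold of 0.5 CPM gave 26 and 22 expressed genes and one of 2 CPM gave 18 in each line. Line, table, counting and depth go together, so levels are not tested between lines.

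Per kilobase of gene length, the order of levels differed in its upper ranks. In C42 the most abundant collagen was COL6A3, the long chain of type VI, at 131 CPM per kb ± 2.03 (SD, n = 5). It was followed by COL7A1 at 74.9 ± 13.1, COL6A2 at 46.8 ± 4.54 and COL6A1 at 33.1 ± 1.40 CPM per kb, and the ranges of these 4 neighbours did not overlap. COL4A1, at 28.6 ± 0.702 CPM per kb, and COL1A1, at 22.4 ± 4.50, overlapped in range. In Du145 the leading collagen depended on treatment. With DMSO the type V chain COL5A1 led at 71.6 CPM per kb ± 4.61 (SD, n = 3), above COL7A1 at 68.8 ± 3.37 in each of the 3 libraries although their ranges overlapped. With palbociclib COL7A1 led at 84.2 ± 9.55 and COL5A1 was at 33.98 ± 3.20 CPM per kb, with no overlap. The type IX chain COL9A3 came next in both treatments, at 33.5 ± 3.27 with DMSO and 21.1 ± 2.53 with palbociclib, followed by COL4A2 at 21.7 ± 1.76 and 13.9 ± 1.12 CPM per kb. COL6A3, the leading collagen of C42, had 4 counts in 1 Du145 DMSO library and 0 in the other 5 Du145 libraries.

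Partner chains were not always present together. Type I collagen is usually built from COL1A1 and COL1A2 chains. In C42, COL1A1 ran from 161 to 277 CPM per library and COL1A2 from 0 to 1.78 CPM. In Du145, COL1A1 ran from 33.00 to 45.9 CPM and COL1A2 had 1 count in 1 of the 6 libraries. COL1A1 was thus counted with little or no COL1A2 in either line. Du145 likewise held COL5A1 at 353 to 854 CPM beside COL5A2, its usual partner, at 0 to 0.488 CPM, and COL9A3 at 91.5 to 179 CPM with COL9A1 at 0. For type VI, which needs all its main chains, C42 held COL6A1, COL6A2 and COL6A3 together, whereas Du145 held COL6A1 at 54.9 to 78.8 CPM and COL6A2 at 0.303 to 1.02 CPM. COL11A2, a fibrillar chain of cartilage that was expressed in Du145 only, had 1 count in all 5 C42 libraries together. It lies in the MHC region of chromosome 6, where 37 of 182 protein-coding genes between 29 and 34 Mb reached 1 CPM in C42 (20.3%) and 101 in Du145 (55.5%), against 60.3% and 59.8% of all protein-coding genes. The part of that regional difference in the COL11A2 value was not tested.

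**Figure D1:**
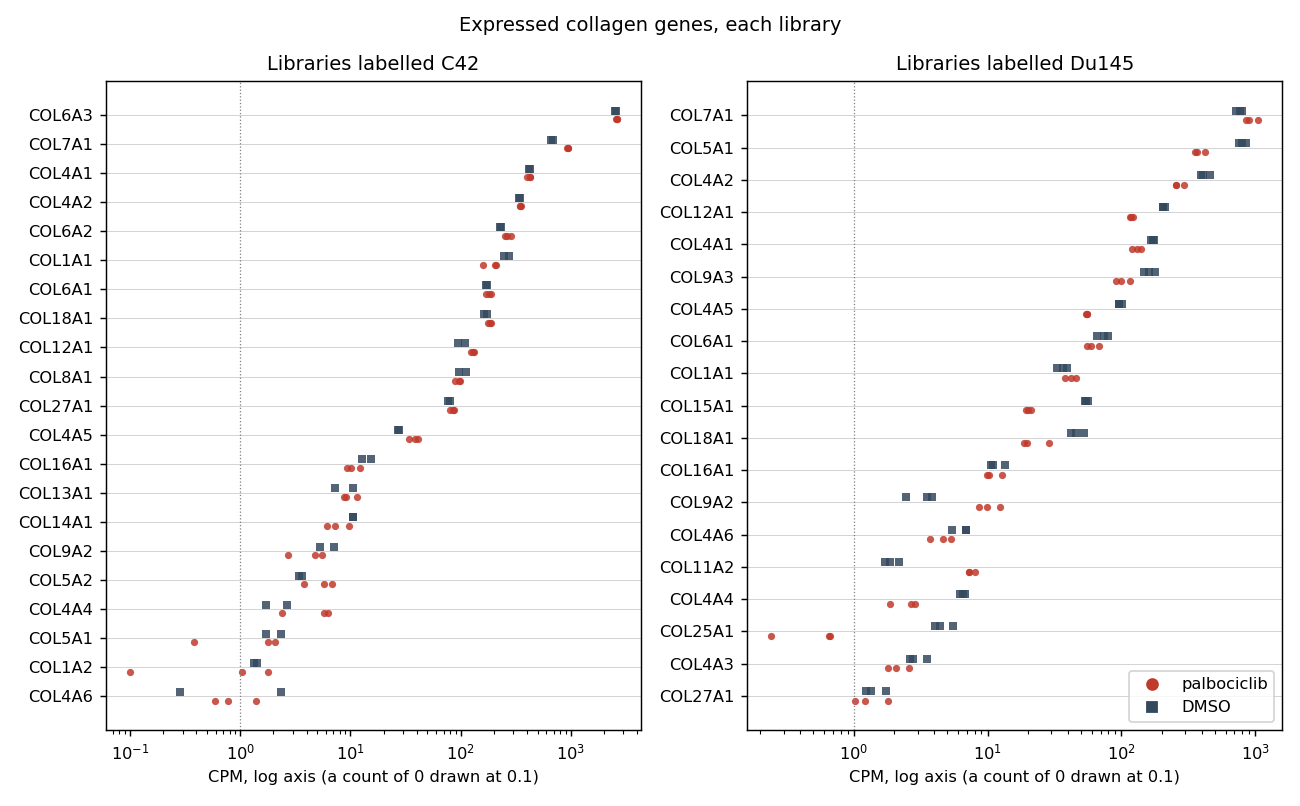
CPM of each expressed collagen gene in each library, on a log axis, with the 21 genes of C42 on the left and the 19 of Du145 on the right, ordered by mean. Squares are DMSO libraries and circles palbociclib libraries, and the dotted line marks 1 CPM. COL6A3 tops the C42 panel with both treatments on top of each other, and in the Du145 panel the circles of COL5A1, COL15A1 and COL25A1 lie left of the squares.

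Promoter sequence is shown for the collagens on which the comparisons below turn: the stretch between the divergent starts of COL4A1 and COL4A2, which share it, the 250 bases before the start of COL7A1, which rose in both lines, of COL12A1, which moved in opposite directions, and of COL15A1 and COL25A1, which fell in Du145. Sequences and start sites are from RefSeq on GRCh38.p14, whose promoter table matched 32 of the 44 genes with 44 windows. Each is written 5′ to 3′ on the gene's own strand, the shared one on the strand of COL4A2. Capitals mark the motifs CCAAT and GGGCGG, searched on both strands (the reverse of GGGCGG reads CCGCCC), and TATAAA, searched on the gene's strand.
COL4A1-COL4A2, chr13:110307158-110307283, plus strand: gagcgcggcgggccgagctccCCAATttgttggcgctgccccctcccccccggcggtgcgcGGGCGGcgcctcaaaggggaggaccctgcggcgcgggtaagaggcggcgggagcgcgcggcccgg
COL7A1, chr3:48595330-48595579, minus strand: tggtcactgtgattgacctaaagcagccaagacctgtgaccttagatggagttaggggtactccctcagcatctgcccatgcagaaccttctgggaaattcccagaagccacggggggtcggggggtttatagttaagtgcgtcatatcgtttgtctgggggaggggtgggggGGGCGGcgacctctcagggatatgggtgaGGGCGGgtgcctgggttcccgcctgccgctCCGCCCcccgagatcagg
COL12A1, chr6:75206054-75206303, minus strand: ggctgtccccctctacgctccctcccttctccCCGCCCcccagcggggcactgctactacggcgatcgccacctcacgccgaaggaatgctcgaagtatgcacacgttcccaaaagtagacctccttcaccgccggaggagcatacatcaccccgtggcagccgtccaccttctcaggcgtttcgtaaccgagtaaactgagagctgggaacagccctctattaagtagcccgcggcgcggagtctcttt
COL15A1, chr9:98943657-98943906, plus strand: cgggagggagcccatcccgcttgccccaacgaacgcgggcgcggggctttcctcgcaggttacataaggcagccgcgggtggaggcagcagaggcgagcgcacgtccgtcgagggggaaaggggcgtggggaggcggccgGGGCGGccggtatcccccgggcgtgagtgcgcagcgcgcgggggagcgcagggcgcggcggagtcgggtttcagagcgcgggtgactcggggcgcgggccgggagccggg
COL25A1, chr4:109302659-109302908, minus strand: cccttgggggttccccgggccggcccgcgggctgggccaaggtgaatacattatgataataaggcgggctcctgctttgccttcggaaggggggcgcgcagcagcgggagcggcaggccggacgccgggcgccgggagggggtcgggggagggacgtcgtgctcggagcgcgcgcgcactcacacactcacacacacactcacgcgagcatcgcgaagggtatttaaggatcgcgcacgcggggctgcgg

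The shared type IV stretch is 126 bases long, is 80.2% G and C, and holds 1 CCAAT and 1 GGGCGG. The COL7A1 sequence holds GGGCGG at 3 places, those of COL12A1 and COL15A1 at 1 each, and that of COL25A1 holds none of these letters, at 70.0% G and C. Over the whole windows, which also take in 50 bases after the start, GGGCGG was found in 24 of 44 collagen windows (54.5%) and in 45.0% of all 35116 windows of the table. CCAAT was found in 14 (31.8%) against 34.6%, and TATAAA in 6 (13.6%) against 7.33%. These are matches of letters, not measured binding. The other type IV genes also lie in divergent pairs, with 418 bases between the starts of COL4A4 and COL4A3 and 379 or 1415 bases, by the COL4A6 start taken, between those of COL4A6 and COL4A5.

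With palbociclib in C42, COL7A1, COL12A1, COL4A5 and COL6A2 rose and COL1A1 fell, all by less than 1.5-fold. The most abundant collagen, COL6A3, did not pass the test. Of the 44 genes, 18 had enough counts to be tested, and 4 of these were called higher and 1 lower at an adjusted p under 0.05 in edgeR. Over all 11943 genes tested, 25.2% were called higher and 26.6% lower. The 18 tested collagens had a median log2 fold change of 0.04, and all genes one of 0.0015. COL5A1, COL1A2 and COL4A6 were expressed but too low in counts for the test, with ranges of 0.383 to 2.32, 0 to 1.78 and 0.287 to 2.32 CPM. Fold changes use TMM-scaled libraries, and the values per library are CPM on library totals. Scaling by totals alone moved the median of all genes by 0.05.

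COL7A1, the chain of anchoring fibrils, was at 659 and 682 CPM in the DMSO libraries and 939, 935 and 929 CPM in the palbociclib libraries. Every palbociclib library was higher, by a log2 fold change of 0.43 ± 0.033 (SE, adjusted p = 5.94e-15, edgeR). COL12A1, a FACIT of fibril surfaces, was at 93.7 and 108 CPM with DMSO and 133, 129.9 and 124 CPM with palbociclib. The groups did not overlap, and the change was 0.31 ± 0.074 (adjusted p = 5.50e-04). It was 0.20 without C42 DMSO replicate 1, with an adjusted p of 0.0866. COL4A5, a basement membrane chain that pairs with COL4A6 or with COL4A3 and COL4A4, was at 27.2 and 27.5 CPM and 40.8, 33.7 and 38.8 CPM. All 3 palbociclib libraries were above both DMSO libraries, by 0.42 ± 0.13 (adjusted p = 0.00601). COL6A2, a short chain of type VI, was at 227 and 230.5 CPM and 255, 286 and 263 CPM. It was higher in each palbociclib library, by 0.18 ± 0.053 (adjusted p = 0.00427). Neither COL4A5 nor COL6A2 was called by DESeq2, with adjusted p of 0.104 and 0.0549.

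COL1A1, the main chain of fibrillar type I, was at 277 and 248 CPM with DMSO and 161, 210.1 and 207 CPM with palbociclib in C42. It was lower in every palbociclib library and fell by 0.50 ± 0.067 on the log2 scale (adjusted p = 3.79e-08). Among the other fibrillar genes, COL5A2, at 3.44 to 6.81 CPM, changed by 0.59 ± 0.37 and COL27A1, at 76.5 to 86.6 CPM, by 0.06 ± 0.084, neither called. The COL5A2 groups did not overlap. The basement membrane pair lay close together in both treatments. COL4A1 ran from 404 to 430.5 CPM and changed by -0.06 ± 0.042, and COL4A2 ran from 342 to 354 CPM and changed by -0.03 ± 0.044. COL4A4, at 1.72 to 6.23 CPM, changed by 1.05 ± 0.47 with an adjusted p of 0.0548, and without C42 palbociclib replicate 3 by 1.42 with an adjusted p of 0.00627. Its low counts leave that value wide.

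The type VI chains COL6A3, at 2516 to 2619 CPM, and COL6A1, at 170.1 to 188 CPM, changed by -0.02 ± 0.024 and 0.03 ± 0.059, neither called. COL8A1, a network collagen of vessel walls and Descemet's membrane, was at 89.6 to 111 CPM and changed by -0.18 ± 0.079 (adjusted p = 0.0522). Without C42 DMSO replicate 2 its adjusted p was 0.0117. The FACITs COL14A1 and COL16A1, at 6.13 to 10.6 and 9.34 to 15.3 CPM, changed by -0.48 ± 0.25 and -0.45 ± 0.22, neither called, although the groups of each did not overlap. The type IX chain COL9A2, at 2.68 to 7.16 CPM, changed by -0.56 ± 0.34 and was not called. COL14A1 was called without C42 palbociclib replicate 3, at -0.70 with an adjusted p of 0.0407. Transmembrane COL13A1, at 7.30 to 11.5 CPM, changed by 0.05 ± 0.25 and was not called. The multiplexin COL18A1, the source of endostatin, ran from 162 to 187 CPM and changed by 0.09 ± 0.059 (adjusted p = 0.216), and it was called when scaled by library totals.

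In Du145, most expressed collagens were lower with palbociclib. Among expressed genes the largest falls were in COL25A1, COL15A1, COL4A4, COL5A1 and COL18A1, and every type IV chain but COL4A3 fell. COL11A2, COL9A2, COL7A1 and COL1A1 rose. Of the 44 genes, 22 were tested, 4 were called higher and 13 lower, and of the 19 expressed ones 4 were called higher, 12 lower and 3 not. Over all 15361 genes tested, 28.8% were called higher and 29.2% lower, so that the 18.2% of tested collagens that rose stand beside the first and the 59.1% that fell beside the second. The median log2 fold change was -0.45 over the tested collagens and -0.0074 over all genes. Without both libraries numbered 3 the counts were 3 higher and 13 lower.

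Among fibrillar genes, COL5A1, a regulator of the diameter of type I fibrils, was at 800.3, 751 and 854 CPM with DMSO and 367, 353 and 421 CPM with palbociclib. The groups lay far apart, and COL5A1 fell by 1.05 ± 0.074 on the log2 scale (adjusted p = 1.91e-09). COL11A2 moved the other way, from 1.86, 2.17 and 1.71 CPM to 7.30, 8.13 and 7.26 CPM. It was about 4.01-fold higher, with a log2 fold change of 2.0 ± 0.18 (adjusted p = 4.05e-08). COL1A1 was at 38.9, 33.00 and 36.6 CPM and 38.2, 41.8 and 45.9 CPM, so the lowest palbociclib library lay below the highest DMSO library. Its change of 0.24 ± 0.092 had an adjusted p of 0.0335, which became 0.0588 without palbociclib replicate 2, 0.111 without palbociclib replicate 3, 0.179 without DMSO replicate 2 and 0.0757 without both libraries numbered 3. COL5A3, under 1 CPM at 0.121 to 0.807 CPM, fell by 1.45 ± 0.51 (adjusted p = 0.0188), and the call was lost with DESeq2 (0.0612) and without palbociclib replicate 2 (0.102), DMSO replicate 1 (0.0603) or DMSO replicate 3 (0.0552). COL27A1, at 1.03 to 1.80 CPM, changed by -0.07 ± 0.32 and was not called.

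All 6 type IV genes were expressed in Du145, and in each of them every palbociclib library was below every DMSO library. The groups of COL4A3 and COL4A6 were only narrowly apart. How many of all genes had groups apart in this way was not counted, so the separation is not set against a background. By the test, 5 of the 6 were called lower (83.3%, beside 29.2% of all genes tested), and COL4A3 was not called. COL4A1 was at 173, 167 and 177 CPM with DMSO and 130.5, 120.0 and 141 CPM with palbociclib, and COL4A2, its partner in the common basement membrane trimer, at 408, 393 and 458 CPM and 255, 257 and 293 CPM. They fell by 0.38 ± 0.071 (adjusted p = 2.17e-04) and 0.62 ± 0.076 (adjusted p = 1.81e-06) on the log2 scale. The pair shares the promoter stretch printed above, and their annotated bodies overlap by 1422 bases on opposite strands. COL4A5 was at 96.7, 101 and 96.3 CPM and 55.4, 54.5 and 55.5 CPM, a tight grouping in both treatments. It fell by 0.80 ± 0.068 (adjusted p = 2.09e-08). Its divergent neighbour COL4A6 was at 6.95, 6.94 and 5.43 CPM and 5.37, 3.70 and 4.68 CPM. It fell by 0.46 ± 0.17 (adjusted p = 0.029), a call lost with DESeq2 (0.0622) and without palbociclib replicate 2 (0.157), DMSO replicate 1 (0.0902) or DMSO replicate 2 (0.0884).

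The remaining divergent pair makes the chains of specialised basement membranes such as that of the glomerulus. COL4A4 was at 6.77, 6.25 and 6.59 CPM with DMSO and 2.90, 1.88 and 2.70 CPM with palbociclib. It fell by 1.36 ± 0.19 on the log2 scale (adjusted p = 7.16e-06). COL4A3, at 1.80 to 3.54 CPM, changed by -0.44 ± 0.24 (adjusted p = 0.116). Its body overlaps the antisense gene AC097662.1, whose counts were 19.8% of those of COL4A3. No label or header gives the strand setting of the Du145 counting, so reads of the pair cannot be told apart.

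COL7A1 was at 774, 719 and 791 CPM with DMSO and 848, 899 and 1051 CPM with palbociclib, the highest value being in palbociclib replicate 3. Every palbociclib library was above every DMSO library, and COL7A1 rose by 0.32 ± 0.074 (adjusted p = 0.00132). COL6A1, at 73.9, 66.1 and 78.8 CPM and 54.9, 59.5 and 68.5 CPM, overlapped between groups. Its change of -0.23 ± 0.091 had an adjusted p of 0.0358, and of 0.190 without palbociclib replicate 1, 0.116 without palbociclib replicate 2, 0.0839 without DMSO replicate 1 and 0.143 without DMSO replicate 3. COL6A2, under 1 CPM on average, changed by 0.51 ± 0.50 and was not called.

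Among the FACITs, both type IX chains that were expressed moved, in opposite directions. COL9A2 was at 3.85, 2.48 and 3.54 CPM with DMSO and 9.90, 8.61 and 12.4 CPM with palbociclib, a rise of 1.67 ± 0.18 (adjusted p = 5.56e-07). COL9A3 was at 160.1, 147 and 179 CPM and 91.5, 99.1 and 116 CPM, and fell by 0.64 ± 0.090 (adjusted p = 9.04e-06). Neither gene's groups overlapped. COL9A3 overlaps TCFL5 by 45 bases on the opposite strand, and TCFL5, with 51.9% as many counts, changed by -0.49 (adjusted p = 5.57e-05). COL12A1 was at 210.2, 204 and 204 CPM and 123, 117 and 116 CPM. It was lower in every palbociclib library, by 0.77 ± 0.062 on the log2 scale (adjusted p = 1.20e-08). COL16A1, at 9.90 to 13.4 CPM, changed by -0.07 ± 0.14 and was not called.

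The largest fall of any collagen in Du145 was in COL25A1, a transmembrane chain known from its shed form in amyloid plaques. It was at 4.41, 5.51 and 4.09 CPM with DMSO and 0.664, 0.243 and 0.66 CPM with palbociclib, or 67 to 89 counts against 4 to 11. It fell by 3.11 ± 0.31 on the log2 scale (adjusted p = 1.32e-07). COL17A1, the hemidesmosome collagen, stayed under 1 CPM on average and changed by 0.22 ± 0.41, not called. Both multiplexins fell. COL15A1 was at 56.4, 53.1 and 54.6 CPM and 19.3, 20.1 and 21.3 CPM, a fall of 1.41 ± 0.083 (adjusted p = 2.48e-10). COL18A1 was at 45.6, 42.3 and 52.5 CPM and 18.6, 19.6 and 28.97 CPM, with palbociclib replicate 3 above the other palbociclib libraries, and fell by 1.04 ± 0.14 (adjusted p = 3.74e-06). COL18A1 overlaps SLC19A1, a folate carrier on the opposite strand, by 20149 bases. SLC19A1 had 192% as many counts in Du145, where it changed by 0.46 (adjusted p = 4.84e-04), and 17.1% as many in C42, where counting used no strand and it changed by -0.71 (adjusted p = 1.90e-05).

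**Figure D2:**
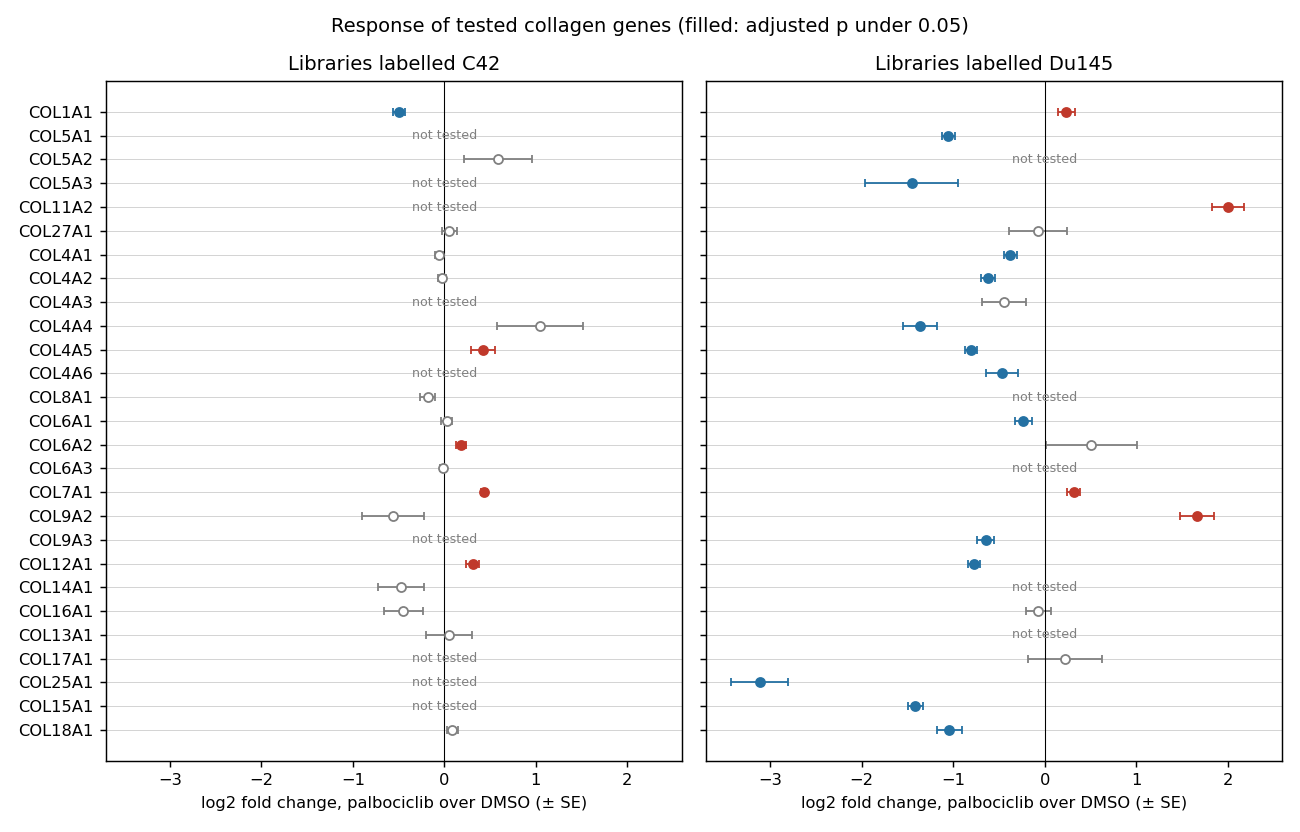
Log2 fold change of palbociclib over DMSO with its SE for the 27 collagen genes tested in either line, C42 on the left and Du145 on the right, ordered by structural class. Filled points have an adjusted p under 0.05, red for higher and blue for lower. The C42 points that are filled lie between -0.50 and 0.43, and those of Du145 run from -3.11 for COL25A1 to 2.0 for COL11A2.

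The response to palbociclib was then compared between lines by the interaction term of a joint edgeR fit, the Du145 log2 fold change minus the C42 one. Of the 13 collagens tested in both lines, 8 differed, 2 toward a higher change in Du145 and 6 toward a lower one. Over the 11007 genes tested in both lines, 50.6% differed, so that 8 of 13 is not far from that share. By direction, the 18139 genes of the joint fit, not limited to those tested in both lines, had 3337 called higher and 2727 lower. COL9A2 had the largest difference toward Du145, 2.27 ± 0.41 (SE, adjusted p = 4.59e-05), and COL1A1 differed by 0.77 ± 0.14 (adjusted p = 3.20e-05). COL4A4 differed by -2.38 ± 0.49 (adjusted p = 2.27e-04) and COL4A5 by -1.19 ± 0.15 (adjusted p = 8.59e-08), each a lower change in Du145. COL18A1 differed by -1.09 ± 0.16 and COL12A1 by -1.05 ± 0.10 (adjusted p = 1.88e-06 and 1.18e-09). The shared-promoter pair COL4A2 and COL4A1 differed by -0.56 ± 0.10 and -0.29 ± 0.092 (adjusted p = 2.72e-05 and 0.0149). The COL4A1 call was lost without C42 DMSO replicate 1 (0.0522) or replicate 2 (0.0862).

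A total of 4 collagens passed the test in both lines, of which 3 moved in opposite directions, as did 48.2% of all 3724 genes called in both. COL7A1 rose in each, and COL12A1 and COL4A5 rose in C42 and fell in Du145, while COL1A1 fell in C42 and rose in Du145. The C42 calls of COL12A1 and COL4A5 and the Du145 call of COL1A1 were each lost in alternatives given above, so the opposite movement is less sure. For COL7A1 the difference between lines was -0.08 ± 0.091 (adjusted p = 0.563), and -0.19 (0.00382) without both Du145 libraries numbered 3 or -0.18 (0.0345) without Du145 palbociclib replicate 3 alone. COL6A1 differed by -0.22 ± 0.12 (adjusted p = 0.175), and by -0.30 (0.00695) without both libraries numbered 3, by -0.33 (0.0164) without Du145 palbociclib replicate 3 and by -0.33 (0.0346) with library totals. COL16A1, COL6A2 and COL27A1 differed by 0.41 ± 0.27, 0.36 ± 0.39 and -0.09 ± 0.27, none called.

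**Figure D3:**
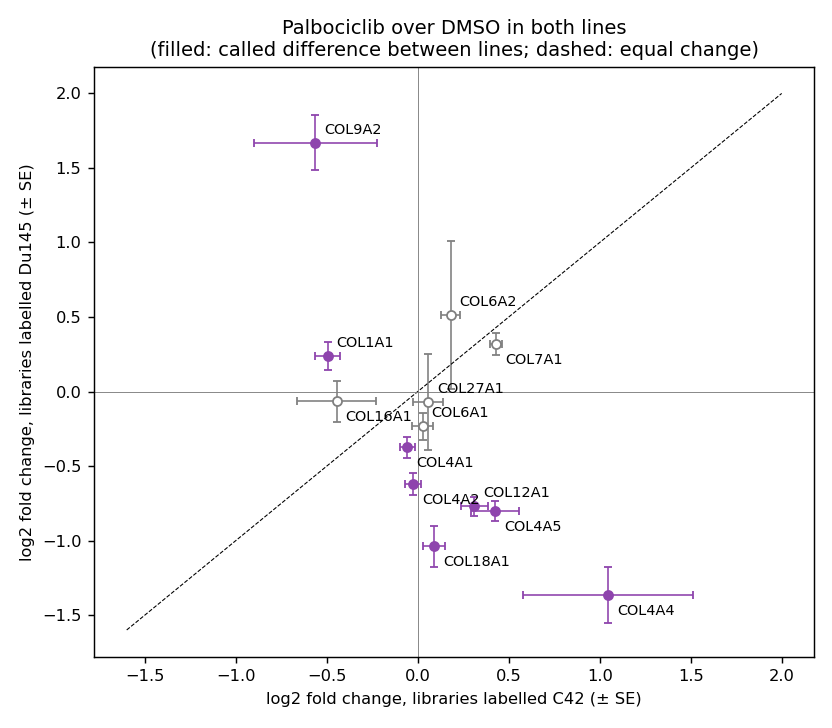
Log2 fold change in C42 (x) and in Du145 (y), each with its SE, for the 13 collagen genes tested in both lines. The dashed line marks equal change and filled points are the 8 genes with a called difference between lines. COL9A2 and COL1A1 lie above the line, and COL4A4, COL4A5, COL12A1, COL18A1, COL4A2 and COL4A1 lie below it.

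Chain ratios within a type show how far chains of a type kept step. They are ratios of CPM per kb in one library, given as values without a test, since 3 against 3 libraries cannot go below p = 0.1 in an exact permutation test. In C42, COL4A1 to COL4A2 was 1.58 ± 0.0484 (SD, n = 3) with palbociclib and 1.61 ± 0.00546 (n = 2) with DMSO, and the groups overlapped. In Du145 it was 0.637 ± 0.0307 and 0.539 ± 0.0287 (n = 3 each), higher in every palbociclib library. COL4A5 to COL4A1 went up in C42, from 0.0805 ± 0.00111 to 0.112 ± 0.0126, and down in Du145, from 0.707 ± 0.0378 to 0.527 ± 0.0379, without overlap in either line.

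COL4A4 to COL4A3 in Du145 was 2.01 ± 0.272 with DMSO and 1.06 ± 0.270 with palbociclib. COL9A2 to COL9A3 in Du145 was 0.0232 ± 0.00418 with DMSO and 0.116 ± 0.0137 with palbociclib, a 4.98-fold higher mean. Even so, COL9A2 stayed well below COL9A3 per length in each library. In C42, COL6A3 to COL6A1 was 4.03 ± 0.00918 and 3.93 ± 0.147, with overlap, and COL6A2 to COL6A1 was 1.32 ± 0.0317 with DMSO and 1.48 ± 0.151 with palbociclib, without overlap.

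**Figure D4:**
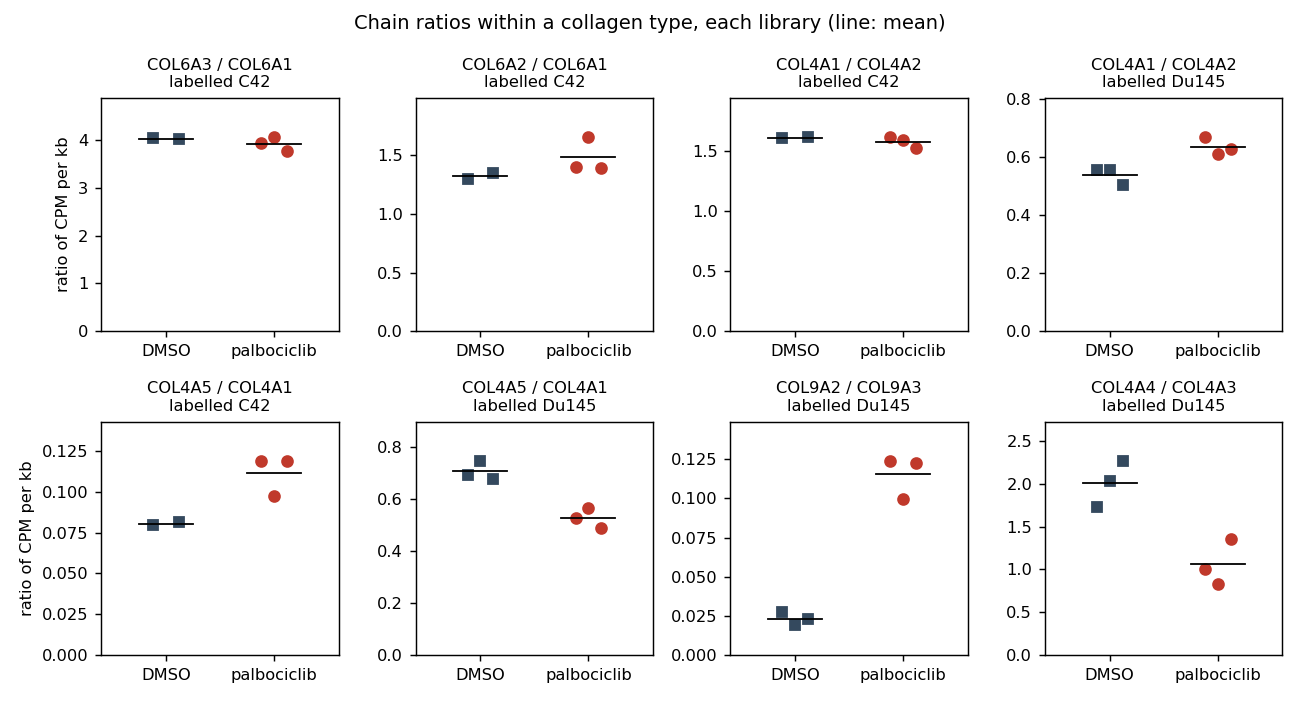
Ratio of CPM per kb between chains of a collagen type in each library, with DMSO as squares, palbociclib as circles and the group mean as a line, every axis starting at 0. The mean of COL9A2 to COL9A3 in Du145 is 0.0232 with DMSO and 0.116 with palbociclib, and COL6A3 to COL6A1 in C42 is near 4 in both treatments.

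Summed over the 44 genes, collagens made up 5176 CPM ± 36.0 (SD, n = 2) with DMSO and 5519 ± 16.1 (n = 3) with palbociclib in C42, and 2874 ± 153 and 2177 ± 199 CPM (n = 3 each) in Du145. The groups did not overlap in either line. On TMM-scaled libraries the sums were 5281 and 5446 in C42 and 2852 and 2195 in Du145, in the same order. COL6A3 alone made up 47.6% of the sum in C42 palbociclib replicate 1. In C42 COL7A1 was the only member whose mean differed by more than 100 CPM between treatments, and in Du145 the mean of COL5A1 was 802 CPM with DMSO and 380.2 CPM with palbociclib.

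Genes that modify, export, process, degrade or bind collagen were then counted, from 6 lists of 74 genes. In C42, 52 were tested, 27 rose (51.9%) and 9 fell (17.3%), beside 25.2% and 26.6% of all genes tested, with a median log2 fold change of 0.23. In Du145, 48 were tested, 15 rose (31.3%) and 20 fell (41.7%), beside 28.8% and 29.2% of all genes, with a median of -0.05. The share that rose in Du145 was thus near that of all genes. These are the all-gene shares for each list below. Of the genes listed under propeptide processing and cross-linking, 3 rose and 2 fell among 10 tested in C42. These shares of 30% and 20% are near those of all genes, and SPARC, a collagen-binding protein, was among those that rose. In Du145 none rose and 8 fell among 9 tested (88.9%, beside 29.2% of all genes). Of the genes listed under chaperones and export, 9 of 12 rose in C42 (75%, beside 25.2% of all genes) and 2 fell (16.7%, beside 26.6%). The list also holds CREB3L1, which fell in C42, and TMEM38B, which rose in Du145, neither of them a chaperone or export factor. In Du145, 6 of 11 rose (54.5%, beside 28.8%) and 2 fell (18.2%, beside 29.2%).

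Of the hydroxylases and glycosyltransferases, 6 rose (42.9%, beside 25.2% of all genes) and 3 fell (21.4%, beside 26.6%) among 14 tested in C42. In Du145, 3 of 14 rose (21.4%, beside 28.8%) and 4 fell (28.6%, beside 29.2%), no more than over all genes. PLOD2, the lysyl hydroxylase of cross-link sites, was at 775 and 797 CPM with DMSO and 1533, 1539.8 and 1541 CPM with palbociclib in C42, and at 117, 112 and 103 and 83.3, 85.04 and 73.5 CPM in Du145. It rose by 0.92 ± 0.030 (adjusted p = 1.23e-27) in the first and fell by 0.43 ± 0.074 (adjusted p = 8.29e-05) in the second. PLOD3 went the other way, by -0.15 ± 0.063 in C42 and 0.43 ± 0.079 in Du145, and the C42 call was lost in 7 of the alternative analyses. PLOD1 changed by -0.05 ± 0.045 and 0.04 ± 0.082, called in neither. The prolyl hydroxylase subunit P4HA2 rose by 0.27 ± 0.050 in C42 and fell by 0.61 ± 0.078 in Du145. P4HA1 and the shared subunit P4HB rose in C42, by 0.28 ± 0.072 and 0.19 ± 0.033, and changed by -0.03 ± 0.079 and 0.07 ± 0.062 in Du145, not called. The P4HA1 rise was lost without C42 DMSO replicate 2 (0.0609), and P4HB in Du145 was called without both libraries numbered 3 (0.0373). P3H1, a prolyl 3-hydroxylase, rose by 0.50 ± 0.079 in Du145.

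SERPINH1, or HSP47, the chaperone that is specific to collagen, fell by 0.35 ± 0.040 (adjusted p = 4.52e-10) in C42 and changed by -0.04 ± 0.071 in Du145, not called. KDELR2, a receptor that returns chaperones to the endoplasmic reticulum, rose in both lines, by 0.55 ± 0.044 and 0.72 ± 0.062. The prolyl isomerases FKBP9 and FKBP10 rose by 0.48 ± 0.051 and 0.46 ± 0.049 in C42. In Du145 the isomerase FKBP14 rose by 1.18 ± 0.084 and FKBP9 fell by 0.60 ± 0.071. MIA2, an organiser of export sites, rose by 0.94 ± 0.11 in C42 and fell by 1.27 ± 0.12 in Du145.

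Among processing and cross-linking genes, the lysyl oxidases LOX and LOXL2 rose in C42 by 1.16 ± 0.23 and 0.65 ± 0.047, and ADAMTS3, a remover of amino-terminal propeptides, fell by 0.71 ± 0.12. In Du145 LOXL2 fell by 0.34 ± 0.080 and LOX changed by 0.07 ± 0.084, not called. The propeptide-trimming proteinase TLL1 and the enhancers PCOLCE and PCOLCE2 fell in Du145, by 1.35 ± 0.17, 1.46 ± 0.23 and 0.79 ± 0.091. BMP1, which removes carboxy-terminal propeptides, changed by 0.0 ± 0.069 in C42, not called, and fell by 0.20 ± 0.071 in Du145 (adjusted p = 0.0201). That call was lost without palbociclib replicate 1 (0.112), palbociclib replicate 2 (0.0960) or DMSO replicate 3 (0.0561).

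Of the breakdown genes, 6 rose (54.5%, beside 25.2% of all genes) and 2 fell (18.2%, beside 26.6%) among 11 tested in C42. In Du145, 5 of 8 rose (62.5%, beside 28.8%) and 3 fell (37.5%, beside 29.2%). The list also holds the metalloproteinase inhibitors TIMP1, TIMP2 and TIMP3, so its counts are not those of degrading enzymes alone. The 5 that rose in Du145 were TIMP1, TIMP2, PEPD, MMP14 and CTSK, the last 2 under 1 CPM on average, and TIMP3 was among those that fell. In C42 those that rose included TIMP2 and TIMP3. The gelatinase MMP2, its inhibitor TIMP2 and the collagen uptake receptor MRC2 rose in C42, by 0.34 ± 0.039, 0.63 ± 0.052 and 0.55 ± 0.063. In Du145 MRC2 fell by 0.51 ± 0.077, while the peptidase PEPD and TIMP1 rose by 0.65 ± 0.066 and 0.58 ± 0.070. MMP14, a membrane collagenase, fell from 676 and 726 CPM to 617, 623 and 606 CPM in C42, by 0.23 ± 0.036 on the log2 scale. In Du145 it was under 1 CPM on average, at 0.248, 0.248 and 0.061 CPM with DMSO and 1.39, 1.15 and 1.98 CPM with palbociclib, a rise of 3.0 ± 0.49 (adjusted p = 4.32e-05).

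Of the receptors, 3 rose (60%, beside 25.2% of all genes) and none fell (beside 26.6%) among 5 tested in C42. In Du145, 1 of 6 rose (16.7%, beside 28.8%) and 3 fell (50%, beside 29.2%). DDR2, a receptor kinase for fibrillar collagen, was at 73.9 and 88.9 CPM with DMSO and 122, 119.6 and 119.9 CPM with palbociclib in C42, and at 11.6, 11.1 and 10.2 and 3.80, 2.002 and 2.76 CPM in Du145. It rose by 0.53 ± 0.080 in the first and fell by 1.92 ± 0.18 in the second. ITGA2, an integrin chain that binds collagen, rose by 0.27 ± 0.10 in C42, a call lost in several alternatives, and fell by 0.46 ± 0.092 in Du145, and ITGB1, its partner, rose by 0.23 ± 0.026 in C42. DDR1 fell by 0.51 ± 0.10 in Du145 and had 1 count in each of 2 C42 libraries, where it lies in the same thinly counted stretch of chromosome 6 as COL11A2. No gene of the small proteoglycans that coat fibrils had enough counts to be tested in either line. Of 20 listed genes called in both lines, 11 moved in opposite directions (55%), near the 48.2% of all 3724 genes called in both lines that did so. All 11 had a called difference between lines, as did all 1794 such genes, so that this says nothing particular of the listed ones.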

How the data were processed

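The authors deposited raw read counts per gene in 1 table per line. Per the file headers, the C42 counts came from featureCounts 2.0.1 over exons of Ensembl annotation 107 with no strand setting, although the labels name a directional kit. No header names the counter or strand setting behind the Du145 counts. Per the submitters' processing notes the build is hg38. Gene lengths, biotypes and positions are those of the Du145 table, and its columns were matched to samples by treatment and number.

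Each line was fitted alone with edgeR 4.0.16 in R 4.3.3: filterByExpr, TMM, quasi-likelihood F test, Benjamini-Hochberg adjustment over all genes tested, threshold 0.05. A joint fit of genes in both tables, with 1 estimate of spread per gene over both lines, gave the interaction. The C42 test had 3 against 2 libraries in place of 3 against 3. CPM used library totals, and SEs come from the coefficient and its F statistic. The script was tested on simulated counts. Alternatives were size factors, library totals, DESeq2 1.42.0, no filter or 1 CPM, a replicate block, leaving out each library, and, added after seeing the data, leaving out both Du145 libraries numbered 3. Collagens are given per library where they averaged 1 CPM or more and were called, otherwise by range. From the other lists, 10 genes were named whatever their result, with up to 3 called genes per list and line by smallest adjusted p. TIMP3, and the naming of the breakdown genes that rose in Du145, were chosen after their values were seen. Members and lists were chosen with earlier results of these data known.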

Additional observations from a re-analysis of the deposited data

Results flagged for a closer look

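Palbociclib responses that differed between the lines, by the interaction term in edgeR, are given as the Du145 log2 fold change minus the C42 one. For the collagens the differences were 2.27 ± 0.41 (SE) for COL9A2, 0.77 ± 0.14 for COL1A1, -0.29 ± 0.092 for COL4A1, -0.56 ± 0.10 for COL4A2, -1.05 ± 0.10 for COL12A1, -1.09 ± 0.16 for COL18A1, -1.19 ± 0.15 for COL4A5 and -2.38 ± 0.49 for COL4A4. COL4A4 and COL9A2, the lowest and the highest of these differences, each averaged under 10 CPM in both lines.

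Among the listed genes that were called in opposite directions, the hydroxylases differed by -0.84 ± 0.10 for P4HA2, -1.32 ± 0.086 for PLOD2 and 0.62 ± 0.11 for PLOD3. The chaperone FKBP9 differed by -1.05 ± 0.10 and the export factor MIA2 by -2.18 ± 0.18. The lysyl oxidase LOXL2 differed by -0.96 ± 0.10. Among breakdown genes the differences were 3.24 ± 0.37 for MMP14, -1.02 ± 0.11 for MRC2 and -1.505 ± 0.30 for TIMP3, an inhibitor of metalloproteinases that rose by 1.22 ± 0.31 in C42 and fell by 0.32 ± 0.068 in Du145. The receptors ITGA2 and DDR2 differed by -0.70 ± 0.15 and -2.41 ± 0.19. The lines also differ in counting, table and depth, which cannot be told apart from the line. The SEs of these differences rest on 1 estimate of spread per gene over both lines. For MMP14 the SE of 0.37 was below its SE of 0.49 in Du145 alone.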

How the results depend on the processing

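No value changed direction while called. In C42, DESeq2 called 2 collagens higher in place of 4 and 3793 genes in place of 6184, and 2 collagens were called lower in place of 1 with a filter at a mean of 1 CPM (COL8A1 added) and with the replicate block (COL14A1 added, and COL4A4 called higher). Leaving out 1 C42 library at a time gave 1 to 2 collagens lower. In Du145 the alternatives gave 3 to 4 collagens higher and 10 to 14 lower, and between lines 2 higher and 5 to 8 lower. Over single collagens, 676 recomputed values kept their call or lack of one, 23 lost the call and 13 gained it. Values that were called in neither analysis could change sign. In C42, COL6A3 changed by -0.02 in the main fit and by 0.03 with library totals. The losses and gains are given beside their genes in the text where 1 library or DESeq2 makes them, with an exception. Without Du145 palbociclib replicate 3, 14 collagens were called lower in place of 13, and the added gene is not named here. With library totals COL4A4 in C42 had an adjusted p of 0.0448 and Du145 COL1A1 of 0.0517, and with no filter on low counts Du145 COL1A1 had 0.0569. Whether replicate numbers pair the samples was not settled. Deviations of equal numbers correlated at 0.008 and 0.031 in C42, where having only 2 DMSO libraries forces mirrored values that cannot decide it. In Du145 they correlated at 0.015 and 0.029 for numbers 1 and 2, neither the best match of its palbociclib library. The Du145 libraries numbered 3 correlated at 0.11 with each other, a weak match, and at -0.074 to -0.044 with other numbers. Deviations within a group sum to 0, so the negative values are tied to the positive one and add nothing to it. With the block, 5699 genes were called in C42 and 9953 in place of 8924 in Du145, with 4 collagens higher and 13 lower in Du145. Low counts go with wide SEs in both lines, 0.34 to 0.47 for COL4A4, COL5A2 and COL9A2 in C42 and 0.41 to 0.51 for COL17A1, COL6A2 and COL5A3 in Du145.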
